A study of Mus musculus with 9 samples.

Results

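Spink8, Fibcd1, Wfs1, C1ql2, Dsp, Lct and Zbtb20, 7 transcripts that mark the principal neurons of the hippocampus, were followed through every brain library of a mouse study of cerebral venous sinus thrombosis (CVST). They were chosen by name, from what they are known to mark, with earlier results of these data known. No threshold on a measured value was used. They are 7 of the 20731 genes counted, and all 7 passed the filter on low counts that left 14746 genes for testing. The animals were male C57BL/6J mice of 8 to 10 weeks, and RNA was taken on day 2 after modelling. Thrombosis of the superior sagittal sinus was induced in all 9 samples, so these data hold no sham-operated brain. The CVST group (n = 3) had thrombosis alone, the CVST+Ligation group (n = 3) had thrombosis and ligation of the deep cervical lymph nodes, and the 4-PBA group (n = 3) had both procedures and the endoplasmic reticulum stress inhibitor 4-phenylbutyric acid at 100 mg/kg. The methods place that injection 30 min before modelling, and the series' design text places it after ligation. The tissue label of each sample reads brain, whereas the design text speaks of cortical tissue. Markers of striatum or midbrain are not markers of cortical tissue, and these words do not tell whether hippocampus was included.

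The hippocampus is a folded sheet of cortex in which granule cells of the dentate gyrus send mossy fibres to CA3 pyramidal neurons, which in turn project to CA1. Each field expresses its own transcripts, so that a marker seen in RNA from a block of brain reads out both how much of that field was in the block and how active the gene was. In such bulk RNA, fewer cells of a type and less RNA per cell cannot be told apart. Among the markers of CA1, Spink8 encodes a secreted serine protease inhibitor of the Kazal type, Fibcd1 a membrane protein that binds chitin and glycosaminoglycans through a fibrinogen-like domain, and Wfs1 (wolframin) a protein of the endoplasmic reticulum membrane that is also abundant in other forebrain neurons. Among the markers of dentate granule cells, C1ql2 is a secreted C1q-like protein of mossy fibre synapses, Dsp (desmoplakin) links desmosomes to intermediate filaments, and Lct encodes lactase, the enzyme of the intestinal brush border. Zbtb20 is a zinc finger repressor required for the identity of hippocampal pyramidal neurons and is expressed in astrocytes as well.

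Total counts ranged from 18100739 to 25091498 per library, so that 3 counts correspond to 0.114 to 0.163 CPM. CPM is the read count scaled to library size, here with factors from the trimmed mean of M values. The methods assign 3 mice per group to sequencing, which matches the 3 libraries of each group. Listed genes of other brain regions differed between libraries of a single tissue label. Cerebellar genes summed to 1511 CPM in CVST+Ligation 2 and to at most 202 CPM in the other 8 libraries. Choroid plexus genes summed to 3135 CPM in 4-PBA 1, to 98.6 and 17.3 CPM in CVST+Ligation 1 and 2, and to 445 to 985 CPM in the other 6. CVST+Ligation 2 stood apart by the cerebellar sum, and the marker values and most list counts of the comparisons that use it are also given without it. CVST+Ligation 1 and 4-PBA 1 stood apart by the choroid plexus sum, and the hippocampal lists are also given without them.

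The deposited values carried the gene length by which each marker was scaled. The length implied by the ratio of count to FPKM, the authors' value scaled to library size and gene length, was equal to the coding sequence alone for 96.6% of 16796 genes, and to the whole exonic length for 0.286%. All 7 markers followed the coding length, so untranslated regions did not enter the length, and the share of exonic length used differed widely among them. Whether counting itself was limited to coding sequence was not tested. Spink8 (ENSMUSG00000050074.12, chr9:109812280-109826633, plus strand, GRCm38) was scaled by 328 coding bases of 821 exonic bases. Zbtb20 (ENSMUSG00000022708.16, chr16:42875881-43642602, plus strand) had 2249 coding bases of 30730, or 7.32%. At the other end, Lct (ENSMUSG00000026354.8, chr1:128284756-128328318, minus strand) had 5793 coding bases and 90.4% of its exonic length, and Dsp (ENSMUSG00000054889.10, chr13:38151294-38198577, plus strand) had 8649 and 89.5%. The remaining loci were Fibcd1 (ENSMUSG00000026841.7, chr2:31813290-31846005, minus strand, 1377 coding bases), Wfs1 (ENSMUSG00000039474.13, chr5:36966104-36989205, minus strand, 2670) and C1ql2 (ENSMUSG00000036907.9, chr1:120340582-120343174, plus strand, 861). The coding exons of Dsp overlap an antisense locus, Gm10129, and reads of the pair may not have been separated. No exon of another gene overlapped the coding sequence of the other 6.

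The coding sequence of the transcript Spink8-201 (GENCODE M21, chr9:109816762-109826414, plus strand, 288 bases) is shown because it makes up most of the short length by which Spink8 was scaled. Capitals mark the start and the stop codon.
Spink8-201: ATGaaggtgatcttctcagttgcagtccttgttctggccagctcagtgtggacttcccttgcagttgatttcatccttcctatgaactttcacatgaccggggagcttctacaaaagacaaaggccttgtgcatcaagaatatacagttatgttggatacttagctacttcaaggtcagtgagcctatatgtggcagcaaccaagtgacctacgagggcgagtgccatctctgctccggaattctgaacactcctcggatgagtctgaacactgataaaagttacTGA

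Because C1ql2, Dsp and Lct varied together between libraries, as described below, the 250 bases before the RefSeq start of each (GRCm38.p6) are shown with CpG dinucleotides in capitals. The windows are chr1:120340332-120340581 on the plus strand, chr13:38151044-38151293 on the plus strand and chr1:128328319-128328568 on the minus strand.
C1ql2: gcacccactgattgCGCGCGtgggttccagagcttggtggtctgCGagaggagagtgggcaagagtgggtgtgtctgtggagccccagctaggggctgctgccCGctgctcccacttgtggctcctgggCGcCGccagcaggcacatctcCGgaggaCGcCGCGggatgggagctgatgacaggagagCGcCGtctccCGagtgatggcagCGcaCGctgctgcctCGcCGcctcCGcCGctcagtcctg
Dsp: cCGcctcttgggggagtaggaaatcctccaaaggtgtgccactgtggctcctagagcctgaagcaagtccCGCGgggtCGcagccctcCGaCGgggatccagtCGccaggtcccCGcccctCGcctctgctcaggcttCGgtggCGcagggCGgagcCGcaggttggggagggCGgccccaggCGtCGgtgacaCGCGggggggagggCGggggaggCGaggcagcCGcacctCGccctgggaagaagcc
Lct: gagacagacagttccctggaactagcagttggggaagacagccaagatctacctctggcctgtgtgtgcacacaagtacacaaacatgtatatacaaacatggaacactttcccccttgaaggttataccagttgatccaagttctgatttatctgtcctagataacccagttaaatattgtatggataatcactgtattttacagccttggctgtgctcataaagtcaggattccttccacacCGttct
The C1ql2 and Dsp windows held 20 and 22 CpG at 68.8% and 72.4% GC, whereas the Lct window held 1 CpG at 42.8% GC. Over all 32851 such windows the medians were 6 CpG and 52.4% GC. C1ql2 and Lct lie 7.94 Mb apart on chromosome 1. RefSeq windows were found for 6 of the 7 markers, all but Spink8. On both strands, neither CAGCTG (in 13.0% of all windows), CAGATG (14.4%), TGACG (17.8%), TATAAA (12.4%) nor the endoplasmic reticulum stress element ERSE (0.113%) occurred in the C1ql2, Dsp, Lct or Zbtb20 windows. Wfs1 held 1 CAGATG and Fibcd1 held 1 TGACG. These letters describe the windows only.

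Wfs1 was the most abundant of the 7 transcripts per length and Zbtb20, Dsp and Lct were the least. In the order CVST, CVST+Ligation and 4-PBA, mean FPKM was 103, 86.3 and 84.6 for Wfs1, 23.0, 26.6 and 23.3 for Spink8, and 7.15, 16.2 and 8.38 for Fibcd1. It was 4.20, 20.8 and 17.7 for C1ql2, 0.524, 3.33 and 1.501 for Lct, 0.368, 2.99 and 1.39 for Dsp, and 0.562, 0.614 and 0.748 for Zbtb20. Wfs1 exceeded Spink8 in each of the 9 libraries, by a factor of between 1.41 and 153. Wfs1 itself differed by a factor of 3.46 between its highest and lowest library, in CPM.

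The CA1 marker Spink8 was nearly missing from some libraries of a group and plentiful in another of the same group. Its counts were 7, 26 and 410 in CVST 1 to 3, 409, 5 and 209 in CVST+Ligation 1 to 3, and 129, 143 and 245 in 4-PBA 1 to 3. On the CPM scale these were 0.297, 1.15 and 22.2, then 16.9, 0.258 and 9.19, then 6.99, 6.02 and 9.34. The exact Poisson 95% intervals, which cover counting error only, were 0.120 to 0.613 for CVST 1 and 20.1 to 24.5 for CVST 3. Spink8 thus differed by a factor of 86.3 between CVST 3 and CVST+Ligation 2, while the 4-PBA libraries lay within a factor of 1.55 of each other, and the 3 groups overlapped.

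Fibcd1 followed the same libraries at a higher count. It had 45, 31 and 510 counts in CVST, 936, 102 and 532 in CVST+Ligation, and 299, 189 and 253 in 4-PBA. The CPM values were 1.91, 1.37 and 27.7, then 38.7, 5.26 and 23.4, then 16.2, 7.95 and 9.64. CVST 3 exceeded all 3 4-PBA libraries, and CVST+Ligation 2 lay below them, so no group was separated from another.

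Wfs1, the third marker of CA1 pyramidal neurons, did not share that order. Its counts were 8713, 3621 and 5941 in CVST, 5674, 2417 and 7657 in CVST+Ligation, and 3616, 8648 and 2811 in 4-PBA, or between 107 and 370 CPM. CVST 1, which was among the lowest libraries for Spink8 and Fibcd1, was the highest for Wfs1.

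C1ql2 of the dentate granule cells spanned the widest range. It had 2, 1 and 208 counts in CVST, 722, 64 and 479 in CVST+Ligation, and 137, 226 and 714 in 4-PBA. The CPM values were 0.0850, 0.0443 and 11.3, then 29.8, 3.30 and 21.1, then 7.42, 9.51 and 27.2. In CVST 1 and CVST 2 the counts lay under the floor of 3, with intervals of 0.0103 to 0.307 and 0.00112 to 0.247 CPM, so no fold against them is given. CVST 3 nevertheless lay above CVST+Ligation 2 and above 2 of the 4-PBA libraries.

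Desmoplakin showed the same arrangement. Dsp counts were 10, 12 and 167 in CVST, 1131, 20 and 692 in CVST+Ligation, and 141, 134 and 565 in 4-PBA. The CPM values were 0.425, 0.532 and 9.06, then 46.7, 1.03 and 30.4, then 7.64, 5.64 and 21.5. Libraries 1 and 2 of the CVST group and library 2 of the CVST+Ligation group were low, and CVST 3 fell among the 4-PBA libraries.

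Lactase transcripts were counted 29, 19 and 137 times in CVST, 743, 44 and 580 times in CVST+Ligation, and 192, 135 and 245 times in 4-PBA. The CPM values were 1.23, 0.843 and 7.43, then 30.7, 2.27 and 25.5, then 10.4, 5.68 and 9.34. CVST+Ligation 1 and 3 exceeded all other libraries, and CVST+Ligation 2 lay below CVST 3 and below every 4-PBA library.

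Zbtb20 was low throughout, with 27, 22 and 33 counts in CVST, 42, 17 and 35 in CVST+Ligation, and 19, 36 and 62 in 4-PBA. This corresponded to 0.876 to 2.36 CPM, and most counting intervals overlapped, for example 0.756 to 1.67 in CVST 1 and 1.25 to 2.35 in CVST+Ligation 1. Differences of this size were near the limit of what the depth could show.

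**Figure D1:**
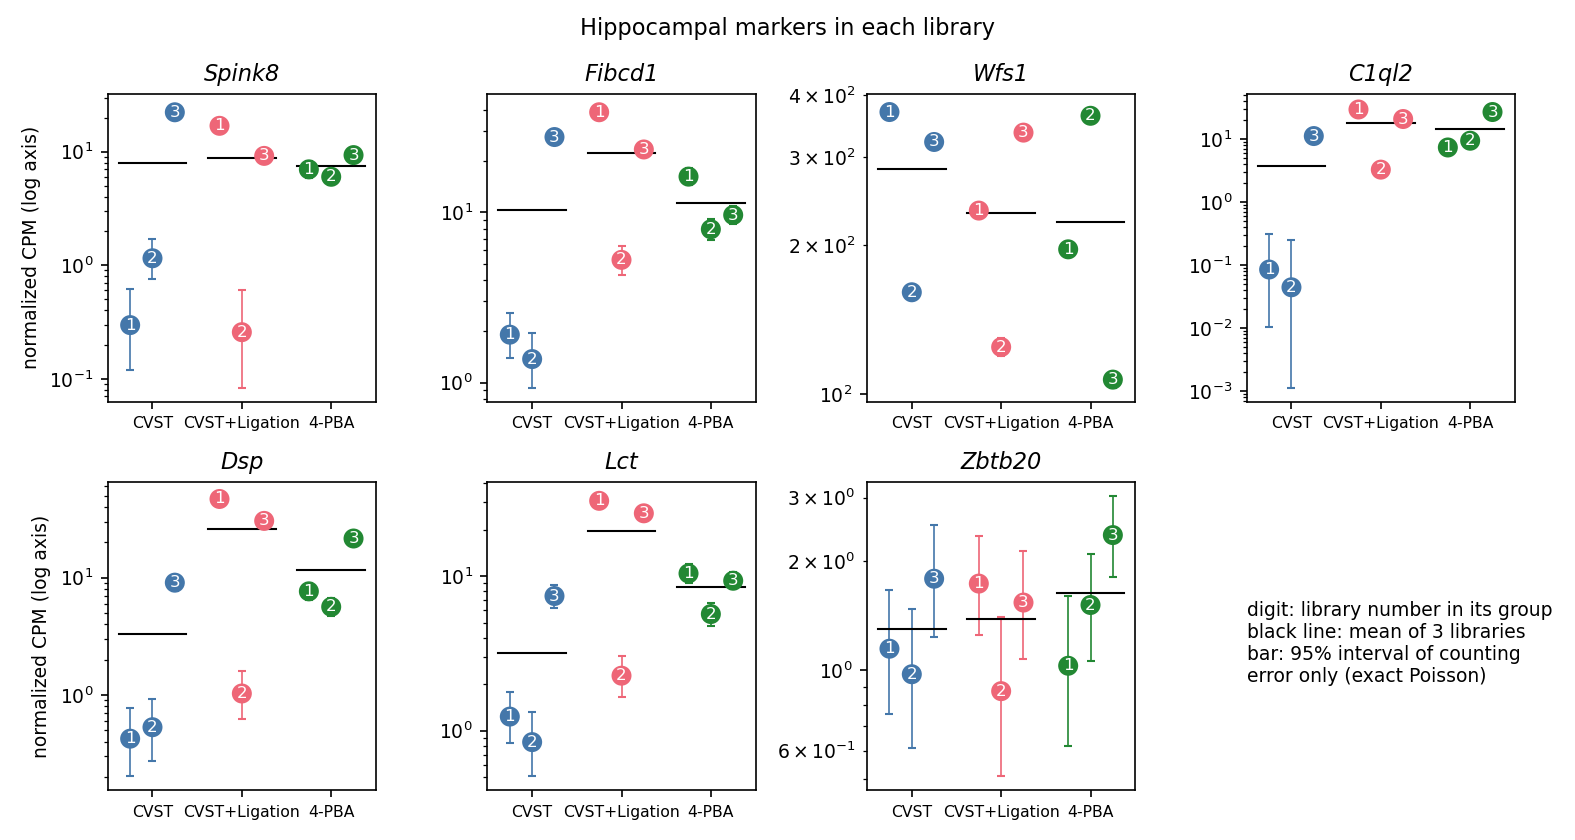
Normalized CPM (log axis, a separate scale for each panel) of the 7 markers in the 9 libraries, arranged by group, with digits for library numbers, black lines for group means and bars for exact Poisson 95% intervals of counting error. For Spink8, Fibcd1, C1ql2, Dsp and Lct the libraries CVST 1, CVST 2 and CVST+Ligation 2 are the 3 lowest, whereas Wfs1 and Zbtb20 are arranged otherwise.

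Across Spink8, Fibcd1, C1ql2, Dsp and Lct, the 3 lowest libraries were always CVST 1, CVST 2 and CVST+Ligation 2. The step from the third lowest to the fourth lowest library was a factor of 5.22 for Spink8, 5.47 for Dsp, 2.51 for Lct, 2.25 for C1ql2 and 1.51 for Fibcd1. The highest library was CVST+Ligation 1 for Fibcd1, C1ql2, Dsp and Lct and CVST 3 for Spink8. CVST+Ligation 2, which is among the low libraries, is also the library with the high sum of cerebellar genes. In CVST 1 and CVST 2 that sum was 100.4 and 164 CPM. Whether the piece of brain that was taken plays a part in these levels was not tested.

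The spread within groups placed these markers among the most variable genes of the study. The SD of log2 CPM about the group means was 2.47 for Spink8, 2.36 for C1ql2, 2.24 for Dsp, 1.62 for Fibcd1 and 1.54 for Lct, against a median of 0.30 over the 14746 genes. These values ranked 15, 18, 30, 112 and 134 from the top. Compared with genes whose mean log2 CPM lay within 0.5 of their own, each of the 5 exceeded at least 99.3% (Lct) and up to 99.8% (C1ql2). Wfs1 had an SD of 0.76, which was lower than in those 5 but exceeded 98.9% of genes at its level. Zbtb20, at 0.50, exceeded 33.6% of genes of like level.

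**Figure D2:**
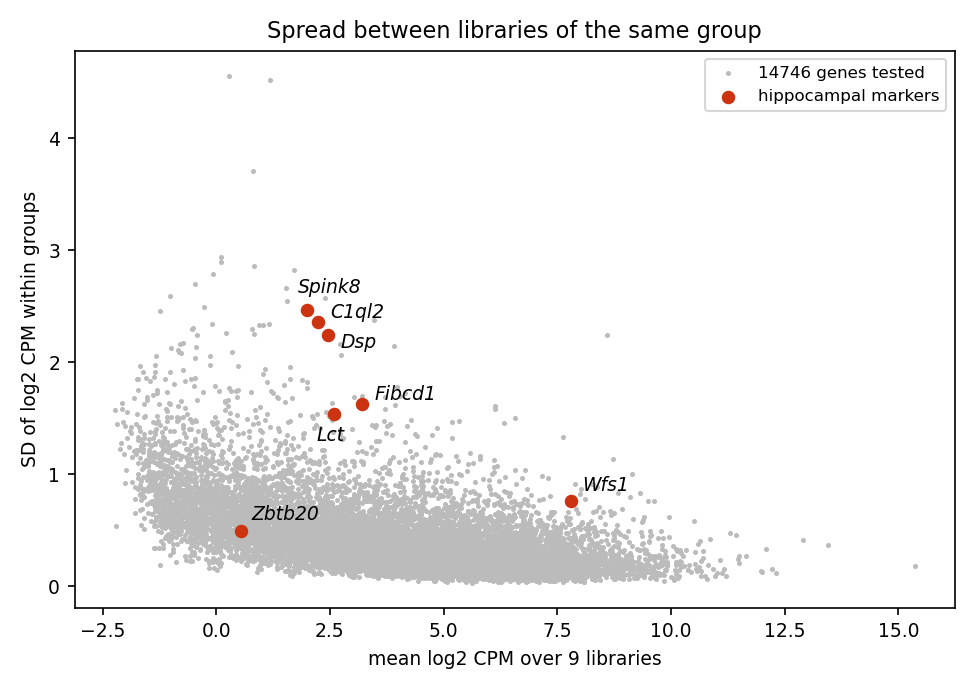
SD of log2 CPM within groups (vertical axis) against mean log2 CPM over 9 libraries (horizontal axis) for the 14746 genes tested (grey) and the 7 markers (red). Spink8, C1ql2 and Dsp lie above 2.2, Fibcd1 and Lct near 1.6, and Zbtb20 lies within the bulk of genes.

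The joint variation was also seen as correlation of log2 CPM over the 9 libraries, given as a description because the libraries share their groups. Dsp and Lct were the closest pair, with Pearson r of 0.97 and Spearman rho of 0.93. The 10 pairs among Spink8, Fibcd1, C1ql2, Dsp and Lct ran from 0.78 (Spink8 and C1ql2) to that value. Once each group mean was subtracted, Dsp and Lct kept 0.97 and Spink8 and Dsp had 0.96, so the likeness was present within groups. With the 2 libraries farthest from the median of the first gene left out, Dsp and Lct had 0.95, and the lowest of the 10 pairs was Fibcd1 and C1ql2 at 0.63. Wfs1 had r between -0.04 and 0.20 with the other 6, and Zbtb20 had 0.57 to 0.75 with the 5. A pair across the fields, Fibcd1 of CA1 and Lct of the dentate, reached 0.94, above C1ql2 and Dsp at 0.93.

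Within a library, the dentate markers could be set against the CA1 markers, a ratio that does not depend on how deeply the library was sequenced. The summed FPKM of C1ql2, Dsp and Lct over that of Spink8 and Fibcd1 was 0.157, 0.0573 and 0.176 in CVST. It was 0.570, 0.943 and 0.720 in CVST+Ligation and 0.342, 0.526 and 1.01 in 4-PBA. All 6 ligated libraries lay above the 3 CVST libraries, but this rested on C1ql2, which had 2 and 1 counts in CVST 1 and 2. The ratio of Dsp and Lct alone to the CA1 markers was 0.114, 0.0459 and 0.0265 in CVST, 0.134, 0.111 and 0.176 in CVST+Ligation and 0.081, 0.0677 and 0.116 in 4-PBA. Without C1ql2 the groups therefore overlapped, as CVST 1 lay above CVST+Ligation 2, 4-PBA 1 and 4-PBA 2. The ratio with C1ql2 rested on 512 dentate and 920 CA1 counts in CVST 3, but on 41 and 52 in CVST 1 and on 32 and 57 in CVST 2. C1ql2 was the largest dentate term except in CVST 1 and CVST 2, where Lct was, and Spink8 was the larger CA1 term except in CVST 1 and CVST+Ligation 2. The ratio was formed after the values were known, and no test is attached to it.

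**Figure D3:**
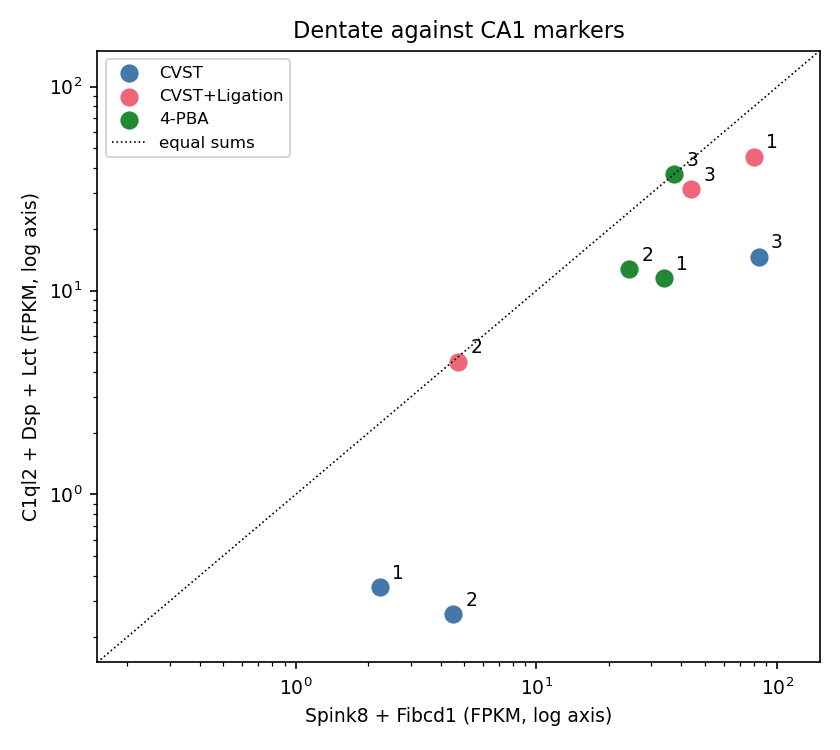
Summed FPKM of the dentate markers C1ql2, Dsp and Lct (vertical, log axis) against that of the CA1 markers Spink8 and Fibcd1 (horizontal, log axis), 1 point per library with its number, colours for groups and a dotted line where the sums are equal. The CVST points lie farthest below the line, at ratios of 0.0573 to 0.176, and 4-PBA 3 lies on it at 1.01.

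The comparison of CVST+Ligation with CVST asked what lymph node ligation adds to thrombosis. The dentate markers had the larger mean differences and the CA1 markers the smaller ones, but the spread within groups was as large. Lct was at 19.5 ± 15.1 CPM (SD, n = 3) after ligation and 3.17 ± 3.70 in CVST, a log2 fold change of 2.64 with SE 0.97 (edgeR quasi-likelihood test, Benjamini-Hochberg adjusted p = 0.427). Dsp was at 26.1 ± 23.2 against 3.34 ± 4.95 CPM, a log2 fold change of 2.99 with SE 1.35 (adjusted p = 0.516). C1ql2 was at 18.1 ± 13.5 against 3.80 ± 6.48 CPM, with a log2 fold change of 2.28 and a 95% interval of -0.90 to 5.45 (adjusted p = 0.632). For the CA1 markers the log2 fold changes were 1.13 for Fibcd1 (interval -1.20 to 3.47), 0.17 for Spink8 (-2.86 to 3.20) and -0.29 for Wfs1 (-1.39 to 0.80), and for Zbtb20 0.09 (-0.93 to 1.12). Of the 7 markers 1, Lct, had an unadjusted p below 0.05, where 9.64% of all genes tested did. None of the 7 passed an adjusted p of 0.05, as 0.0203% of genes did, nor by DESeq2. None had groups that did not overlap, as 13.8% of genes had. The shares for the markers are thus read against a background in which nearly 1 in 10 genes passes without adjustment.

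Single libraries decided these values. CVST 3 was the only CVST library in which Spink8, Fibcd1, C1ql2, Dsp and Lct were plentiful. Without CVST 3, 5 of the 7 markers had an unadjusted p below 0.05, where 1535 of 14991 genes did (10.2%). The log2 fold changes were then 3.58 for Spink8, 3.75 for Fibcd1, 5.74 for Dsp and 4.20 for Lct. C1ql2 was then left with 3 counts in the CVST group (edgeR adjusted p = 0.105). The values without CVST+Ligation 2 were 0.74 for Spink8, 1.60 for Fibcd1, 2.78 for C1ql2, 0.0052 for Wfs1 and 0.33 for Zbtb20, none with an unadjusted p below 0.05. In that fit, where 8.07% of all genes had such a p, Lct had a log2 fold change of 3.17 and Dsp of 3.57, both with an unadjusted p below 0.05 and edgeR adjusted p = 0.342 and 0.444. The unadjusted p of Lct was above 0.05 without CVST 1, CVST 2, CVST+Ligation 1 or CVST+Ligation 3, and its log2 fold change stayed between 1.31 and 4.20 in the 15 alternatives run. An exact permutation test of 3 libraries against 3 cannot give a two-sided p below 0.1 for any single marker.

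The comparison of 4-PBA with CVST+Ligation asked what the inhibitor changes after ligation. All markers but Zbtb20 had lower means with 4-PBA, with the largest log2 fold changes for Lct, Dsp and Fibcd1, and the differences were small against the spread. Lct was at 8.47 ± 2.48 CPM with 4-PBA, a log2 fold change of -1.20 with SE 0.91. Dsp was at 11.6 ± 8.65 CPM (log2 fold change -1.17, SE 1.25) and Fibcd1 at 11.3 ± 4.36 against 22.4 ± 16.7 CPM (log2 fold change -0.999, SE 1.04), and the edgeR adjusted p was 0.9998 for all 7 markers. The other values were -0.24 for Spink8 (interval -3.27 to 2.78), -0.29 for C1ql2 (-3.27 to 2.68), -0.06 for Wfs1 (-1.15 to 1.03) and 0.24 for Zbtb20 (-0.77 to 1.26). No marker had an unadjusted p below 0.05 by edgeR or DESeq2, against 3.23% of all genes. The shares of genes with an adjusted p below 0.05 and with groups that did not overlap were 0% and 7.73%, with no marker among them. Over 15 alternatives, log2 fold changes ran from -1.46 to -0.34 (Fibcd1), -1.98 to -0.36 (Dsp) and -1.72 to -0.54 (Lct). Without CVST+Ligation 2 the values were -0.79 for Spink8, -1.46 for Fibcd1, -0.77 for C1ql2, -1.71 for Dsp, -0.35 for Wfs1 and 0.022 for Zbtb20. The Lct value was then -1.72, with an unadjusted p below 0.05, as for 1497 of 14950 genes, and an adjusted p = 0.474. These intervals do not show that the groups are alike.

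For 4-PBA against CVST, which shares its libraries with both other comparisons, the order was again dentate before CA1. The log2 fold changes were 1.98 for C1ql2 (14.7 ± 10.9 against 3.80 ± 6.48 CPM, edgeR adjusted p = 0.547), 1.83 for Dsp (adjusted p = 0.552) and 1.44 for Lct (adjusted p = 0.511). They were 0.13 for Fibcd1, -0.07 for Spink8, -0.36 for Wfs1 and 0.34 for Zbtb20, whose means were 1.64 ± 0.675 and 1.30 ± 0.429 CPM. None of the 7 had an unadjusted p below 0.05 by edgeR or DESeq2, where 15.4% of all genes did. None was among the 0.122% with an adjusted p below 0.05 or the 23.7% whose groups did not overlap. Without CVST 3, 5 of 7 had an unadjusted p below 0.05, where 2446 of 14991 genes did (16.3%), and the log2 fold changes were 3.34 for Spink8, 2.75 for Fibcd1, 4.58 for Dsp and 3.002 for Lct. The direction of Spink8 turned with that library.

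**Figure D4:**
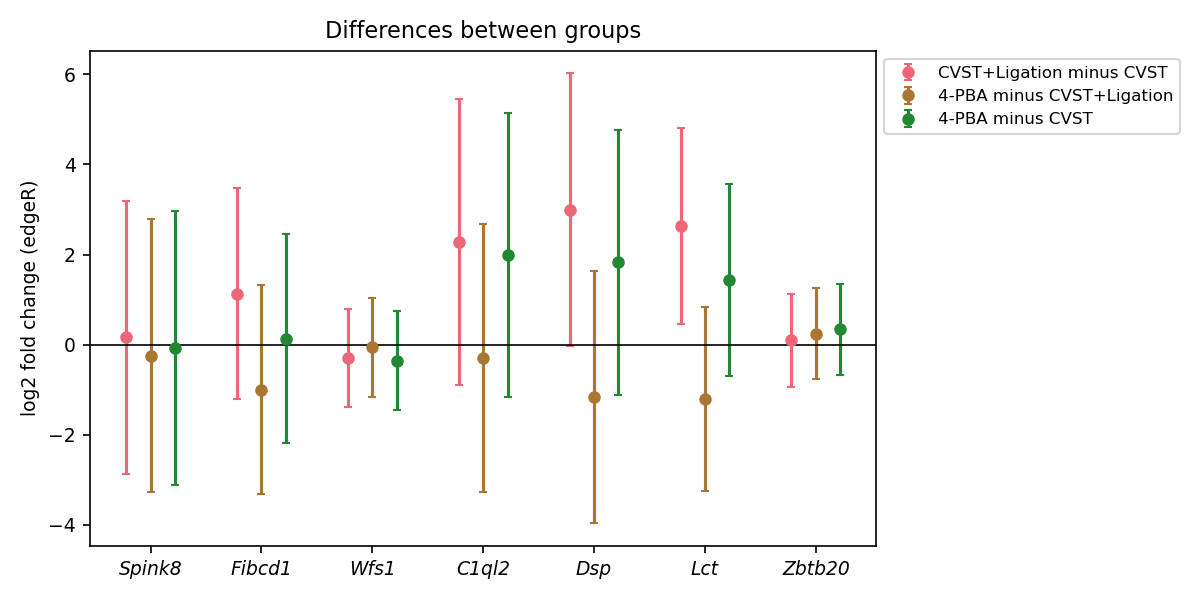
edgeR log2 fold changes of the 7 markers with 95% intervals for CVST+Ligation minus CVST, 4-PBA minus CVST+Ligation and 4-PBA minus CVST. Only the interval of Lct in the first comparison excludes 0, at 0.46 to 4.82, and the intervals of Spink8, C1ql2 and Dsp span more than 5 log2 units in each comparison.

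Other genes of the same neurons were examined through lists of CA1 genes (7), dentate granule genes (11) and CA2 and CA3 genes (10). In CVST+Ligation against CVST, where 9.64% of all genes had an unadjusted p below 0.05, 3 of 11 dentate genes did, all upward, and 10 of 11 had a log2 fold change above 0, with a median of 0.59 against 0.00 over all genes. These were Prox1, the transcription factor that specifies granule cells, at 23.6 ± 6.39 against 8.38 ± 1.66 CPM, Tdo2, which breaks down tryptophan (log2 fold change 1.94), and the polo-like kinase Plk5 (1.62). In CVST+Ligation 2 Prox1, Tdo2 and Plk5 were at 16.7, 2.68 and 22.6 CPM, above CVST 3 at 10.2, 2.17 and 3.74 CPM. For the markers C1ql2, Dsp and Lct, CVST 3 was instead above CVST+Ligation 2. The median r of C1ql2 was 0.41 with the dentate list, 0.71 with midbrain dopamine genes and 0.54 with thalamic genes. Of the 7 CA1 genes only the receptor Gpr161 had such a p (1.56), and the median was -0.06. Among the 10 CA2 and CA3 genes, Coch (-1.65) and Bok (-0.92) were lower and the adhesion protein Amigo2 (1.04) was higher. No gene of the 3 lists had an edgeR adjusted p below 0.05 in this comparison. Without CVST+Ligation 2, 4 of 11 dentate genes and 1 of 7 CA1 genes were higher at an unadjusted p below 0.05, and 4 of 10 CA2 and CA3 genes were higher and 1 lower, against 8.07% of all genes in either direction. Plk5 (0.95) and Bok (-0.59) then had a larger p, and Prox1 (1.69), Tdo2 (2.21), Gpr161 (1.88), Amigo2 (0.98) and Coch (-1.68) still passed. With CVST+Ligation 1 left out, Gpr161 and Bok no longer passed and the calls of the other 5 remained, against 8.41% of all genes.

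With 4-PBA after ligation, 1 CA1 gene, Mpped1, was lower than with ligation alone (log2 fold change -1.30) and 1 dentate gene, Tdo2, was lower (-1.97), at an unadjusted p below 0.05 (3.23% of all genes) and an edgeR adjusted p = 0.9998. No CA2 or CA3 gene had an unadjusted p below 0.05, and Coch had the smallest (0.62). Without CVST+Ligation 2, 3 CA1 genes, 3 dentate genes and 1 CA2 or CA3 gene were lower in this comparison, Mpped1 (-1.65) and Tdo2 (-2.23) among them. Over all genes, calls at that threshold rose from 476 of 14746 to 1497 of 14950 when this library was left out. Between 4-PBA and CVST, Dock10 (1.10), Prox1 (1.58) and Plk5 (1.26) of the dentate list were higher, and Mpped1 (-1.37) and the inositol trisphosphate kinase Itpka (-1.28) of the CA1 list were lower. From the CA2 and CA3 list, Amigo2 (1.52, adjusted p = 0.0684) and Iyd (2.41) were higher and Coch (-1.03) was lower. These are 3 of 11 dentate, 2 of 7 CA1 and 3 of 10 CA2 and CA3 genes, where 15.4% of all genes had such a p, and with lists this short the counts are not set apart from that share. With 4-PBA 1 left out, the same genes of the 3 lists were called in both comparisons that use it, and Mpped1 and Tdo2 were also the only ones called in 4-PBA against CVST+Ligation with CVST+Ligation 1 left out. Most genes of the CA1 list are also expressed by cortical neurons. Their sum was 489 to 731 CPM in CVST, 165 to 736 in CVST+Ligation and 237 to 336 in 4-PBA, with the lowest value in CVST+Ligation 2.

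**Figure D5:**
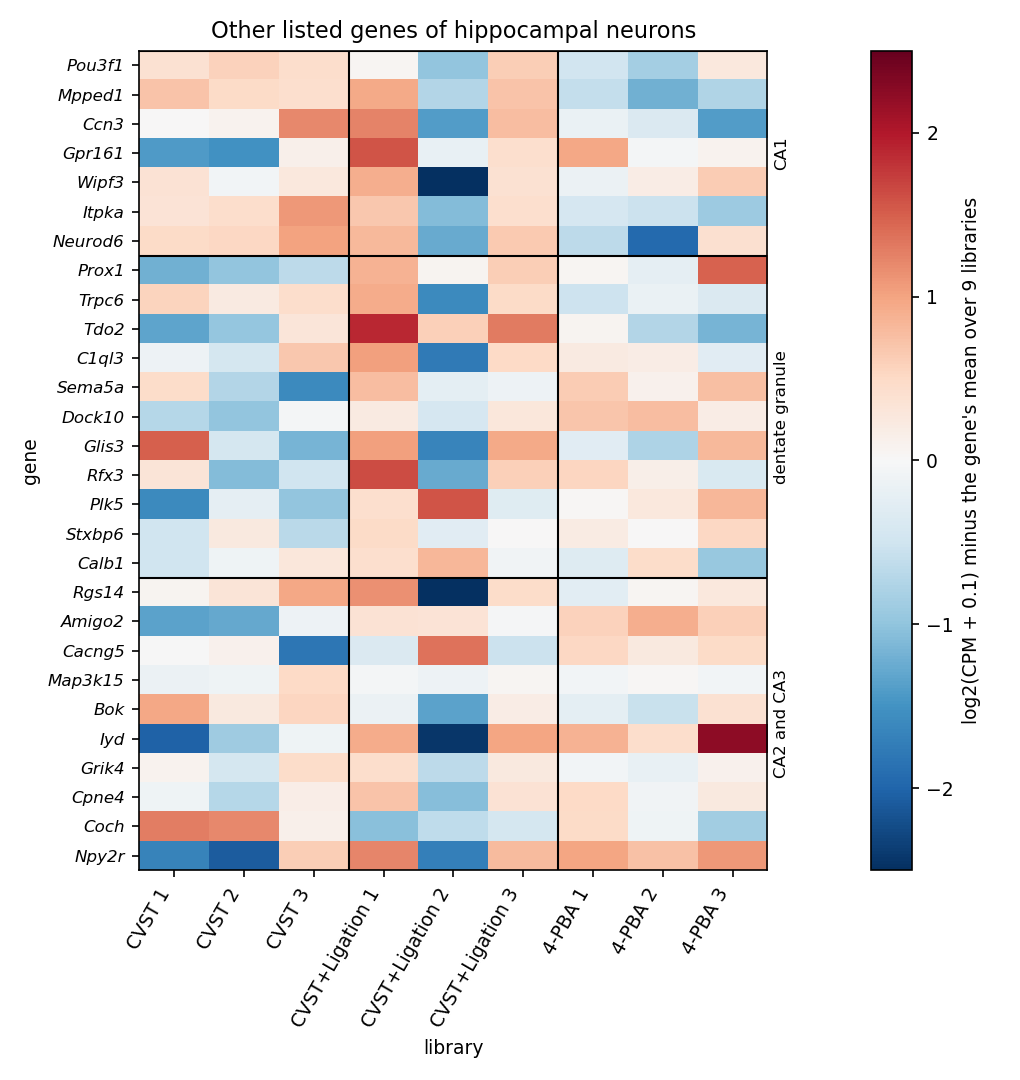
Log2(CPM + 0.1) of the 28 other listed genes of CA1, dentate granule cells, CA2 and CA3, each minus its mean over 9 libraries (colour), in the 9 libraries (columns, by group). Prox1 and Tdo2 are lower in every CVST library than in any CVST+Ligation library, and Rgs14, Iyd and Wipf3 are lowest or nearly so in CVST+Ligation 2.

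Listed genes of other regions differed between the groups as well, and the part of this in the marker values was not tested. In CVST+Ligation against CVST all 10 striatal genes were lower at an unadjusted p below 0.05, where 9.64% of all genes passed, and the striatal sum was 1075 to 1934 CPM in CVST, 229 to 537 in CVST+Ligation, and 269 to 1361 in 4-PBA. Ppp1r1b, a phosphatase inhibitor of medium spiny neurons, had a log2 fold change of -2.32 and the signalling regulator Rgs9 one of -2.55, with the smallest p of the list. All 6 midbrain dopamine genes were higher, 3 of them with an edgeR adjusted p below 0.05, and their sum was 18.02 to 19.5 CPM in CVST, 168 to 205 in CVST+Ligation and 225 to 228 in 4-PBA. The monoamine transporter Slc18a2 (5.63, adjusted p = 0.00337) and the decarboxylase Ddc (3.29) had the smallest p of that list. Of 8 thalamic genes 6 were higher, of which Tcf7l2 (4.06) and the glutamate transporter Slc17a6 (2.38) had the smallest p, and of 11 cortical excitatory genes 6 were lower and 1, Etv1 (1.03), was higher. The cortical sum was 2136 to 2381 CPM in CVST, 670 to 1764 in CVST+Ligation and 723 to 944 in 4-PBA. With CVST+Ligation 2 left out, 9 of 10 striatal genes and 4 of 11 cortical genes were lower, where 8.07% of all genes passed in either direction. In that fit 6 of 6 dopamine and 6 of 8 thalamic genes were higher, as was 1 cortical gene, Etv1 (1.001).

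The thalamic sum in CVST 1, 2 and 3 was 66.1, 73.6 and 76.5 CPM, and the dopamine sum 18.02, 18.4 and 19.5. The cortical sum was lowest in CVST+Ligation 2. The hypothalamic sum was 2.23 to 21.1 CPM in the 6 libraries without 4-PBA and 278 to 474 in 4-PBA, with Hcrt, the orexin precursor, and Oxt, the oxytocin precursor, each at no more than 1.05 CPM in the libraries without 4-PBA. The cerebellar markers Gabra6 and Cbln3 were at or near 0 in all libraries but CVST+Ligation 2 and 3, at 211 and 104 CPM in the former. The 6 pan-neuronal genes gave sums of 3084 to 4657 CPM. In CVST+Ligation against CVST, 2 of them, Rbfox3 (-0.45) and Snap25 (-0.31), were lower at an unadjusted p below 0.05 and none was higher. Over all genes 9.64% had such a p, and the median log2 fold change of the neuronal list was -0.08. Without CVST+Ligation 2, 2 neuronal genes were lower and 1, Map2 (0.81), was higher, where 8.07% of all genes passed in either direction.

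Further lists were chosen for the function of single markers. Of the 14 genes of the unfolded protein response, the pathway that Wfs1 belongs to, none had an unadjusted p below 0.05 by edgeR in CVST+Ligation against CVST, and the smallest were Ddit3 (CHOP, -0.25) and Atf4 (-0.28). Against CVST+Ligation, 4-PBA gave none either, with the smallest p for Manf (0.28) and Creld2 (0.21). Against CVST it gave 1 of 14, a lower Ddit3 (-0.40, edgeR adjusted p = 0.230), where 15.4% of all genes had such an unadjusted p. The Ddit3 call was lost with 4-PBA 1 left out. The desmosome list, for Dsp, had 10 of 14 genes tested and none with such a p in CVST+Ligation against CVST, where Dsc3 had 1.84 and Pkp4 0.31. Of 10 meningeal and arachnoid genes, which include other sites of desmosomes, 1, Ptgds, was higher (0.91), which is about the 9.64% of all genes with such a p. Of the 12 C1q-like and synaptic organizer genes, for C1ql2, 3 were higher, among them C1ql4 (2.08 ± 1.28 against 0.0503 ± 0.0547 CPM) and C1ql1 (log2 fold change 0.97). Of 8 astrocyte genes, for Zbtb20, 3 were higher against the same 9.64%, among them the glutamate transporter Slc1a3 (0.53) and the water channel Aqp4 (0.81). None of 6 choroid plexus genes had an unadjusted p below 0.05 there, and Aqp1 had the smallest (-1.81). Without CVST+Ligation 2, none of the meningeal genes had such a p (Ptgds 0.34), 1 astrocyte gene was lower and none higher (Slc1a3 0.39, Aqp4 0.58), 3 of 12 C1q-like and synaptic genes were higher (C1ql1 0.87), and the unfolded protein response, desmosome and choroid plexus lists again had none. In that fit 8.07% of all genes had such a p. The unfolded protein response list also had none in 4-PBA against CVST+Ligation without CVST+Ligation 2.

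The genes whose log2 CPM followed each marker most closely over the 9 libraries were taken from 13705 genes with a mean of at least 1 CPM. Spink8 was followed by Zfp386 (r = 0.98), Cpne6 (0.97) and Slc9a4 (0.95), and Slc9a4, a sodium-proton exchanger, ran from 0 to 19.1 CPM. Fibcd1 was followed by Lmo1 (0.97), Ppp1r14c (0.97) and Parp8 (0.96). C1ql2 was followed by Olfm4 (0.98), Tspan18 (0.96) and Popdc3 (0.96), all of them lowest in CVST 1 or CVST 2. Dsp and Lct were first and first for each other, then Uso1 (0.97 and 0.96), with Jmjd1c (0.96) next for Dsp and Slc24a3 (0.96) for Lct. Uso1 ranged only from 141 to 172 CPM, so a high r here does not mean a large change. Wfs1 was followed by Cdo1, Mboat7 and Ldb2 (0.94 each), and Zbtb20 by Tle1 (0.94), Tnip2 (0.92) and Copb1 (0.92). With 9 libraries and many candidates such values are partly the result of selection, and they are given as a description.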

How the data were processed

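Gene-level counts and FPKM for 9 brain RNA libraries (3 CVST, 3 CVST+Ligation, 3 4-PBA) were deposited by the authors, and groups were taken from the sample titles. Per the labels, the authors' processing notes name fastp, HISAT2, StringTie and RSEM and the builds mm10 and GRCm38. Whole-number counts were deposited without normalization, and the methods name TPM as the measure of abundance, while the length-scaled column the authors deposited is FPKM, with an implied length equal to coding length for 96.6% of 16796 genes. Versions are not given in the sources used here.

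The counts were tested with edgeR 4.0.16 (R 4.3.3) by quasi-likelihood F-tests in 1 fit over the 3 groups, with TMM scaling, filterByExpr (14746 of 20731 genes) and Benjamini-Hochberg adjustment over all genes tested. Intervals are 95%. CPM used TMM library sizes, and log2 CPM a prior count of 2. FPKM served only to compare genes within a library and, with limma 3.58.1, as an alternative. DESeq2 1.42.0, other scalings and filters, the 2 groups alone, a replicate block and each library left out were further alternatives. The lists without CVST+Ligation 2, CVST+Ligation 1 or 4-PBA 1 were added after seeing the data. The edgeR step was also run on simulated counts, with the outcome not given here. Depth was 18100739 to 25091498 counts per library, and Poisson intervals cover counting error only.

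The markers and gene lists were chosen with earlier results of these data known. Named genes were the 7 markers, the 3 genes most correlated with each, up to 4 genes of each hippocampal list with an unadjusted p below 0.05 (otherwise the smallest), and up to 2 per comparison from every other list. Positions are from GENCODE M21 and promoters from RefSeq. Protein sequences were not used here.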

Additional observations from a re-analysis of the deposited data

How the results depend on the processing

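The number of markers with an unadjusted p below 0.05 in CVST+Ligation against CVST was 1 and became 2 with total counts in place of TMM, with DESeq2, with every gene of at least 1 count kept, and with limma on log2(FPKM + 1) or log2(FPKM + 0.1). It was 0 to 5 with 1 library left out, the 5 being without CVST 3. For 4-PBA against CVST it was 0, became 1 with limma at either pseudocount, and was 0 to 5 with 1 library left out, again 5 without CVST 3. For 4-PBA against CVST+Ligation it was 0 and was 0 to 1 with 1 library left out. Over all genes that last comparison had 476 with an unadjusted p below 0.05, and 256 to 1497 with 1 library left out, the most without CVST+Ligation 2 and the fewest without 4-PBA 2. No marker reached an adjusted p below 0.05 in any alternative, and the smallest was 0.0535, for C1ql2 in 4-PBA against CVST without CVST 3. DESeq2 called 264, 22 and 855 genes at an adjusted p below 0.05 in CVST+Ligation against CVST, 4-PBA against CVST+Ligation and 4-PBA against CVST, where edgeR called 3, 0 and 18. With 1 library left out these edgeR counts were 0 to 7, 0 to 2 and 2 to 162, the 7 without CVST+Ligation 2 and the 162 without CVST 3. The 4-PBA against CVST count was 112 with every gene kept, 6 with at least 10 counts required in every library, 234 with only the 2 groups, and 87 and 134 with limma at pseudocounts of 1 and 0.1. CVST+Ligation against CVST had 0, 1 and 13 such genes with the filter of 10 counts, with only the 2 groups and with limma at 0.1. Spink8 and C1ql2 have no value under the filter of 10 counts in every library.

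Between same-numbered libraries, correlations of deviations from group means ran from -0.0516 to 0.324, with 4 of 9 pairs over 0.1. Between libraries of different numbers and groups they ran from -0.358 to 0.129. Whether the numbers denote a pairing was not tested. With the replicate block, 3 markers had an unadjusted p below 0.05 in CVST+Ligation against CVST and 2 in 4-PBA against CVST, and the genes with an adjusted p below 0.05 were 1 in CVST+Ligation against CVST and 1 in 4-PBA against CVST+Ligation. Under the block Spink8 turned to 0.41 (4-PBA against CVST+Ligation) and 1.05 (4-PBA against CVST), and Wfs1 to 0.015 (4-PBA against CVST+Ligation).

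Other log2 fold changes that turned were small in the fit reported above or rested on few counts. Spink8 in 4-PBA against CVST was 0.033 with total counts and 1.54 and 1.91 with limma at 1 and 0.1, and in 4-PBA against CVST+Ligation 0.78 and 1.08 with limma. With 1 library left out, values ran from -0.73 to 3.58 (Spink8), -0.66 to 0.0052 (Wfs1) and -0.11 to 0.36 (Zbtb20) in CVST+Ligation against CVST. They ran, for 4-PBA against CVST+Ligation, from -0.79 to 0.67 (Spink8), -1.09 to 0.29 (C1ql2), -0.62 to 0.31 (Wfs1) and -0.12 to 0.50 (Zbtb20). For 4-PBA against CVST the ranges were from -0.63 to 3.34 (Spink8), -0.38 to 2.75 (Fibcd1) and -0.026 to 0.61 (Zbtb20). Lct, Dsp and C1ql2 kept their direction in every alternative of both comparisons with CVST. Apart from the left-out libraries themselves, the cause was not tested.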
